A study of Mus musculus with 8 samples.

Results

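The genes described here encode the machinery that copies DNA and supplies its building blocks in S phase. They were chosen by name, 43 in all, with earlier results of these data known. Every probe set of the array with a single gene symbol on that list was taken. Of the 43, 42 had such a probe set, 74 of the 22690 probe sets in all. Chaf1a had none, so it has no level here and enters only the promoter counts. All 42 genes kept at least 1 probe set after the dimmest 30% of the array's probe sets were left out, and 67 of the 74 probe sets remained. Each gene is represented by its brightest probe set, among 9294 genes tested.

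The cells were mouse primary keratinocytes, the epithelial cells of the epidermis, taken into culture. All 8 arrays, the untreated ones included, came from cells infected with an empty retrovirus, a vector that carries no added gene. There were 2 untreated arrays and 6 arrays of cells collected after tamoxifen, 1 each at 20, 40, 60, 120, 180 and 240 min. The labels name no mouse strain, age, tamoxifen dose or number of cultures, and the p-values below measure only the spread between these arrays, which may be technical. Values are log2(intensity + 16), called log2 levels, and a level is compared only between arrays and never between genes, since each probe set has its own brightness.

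A cell licenses its replication origins in G1, when the origin recognition complex, Cdc6 and Cdt1 load the ring-shaped helicase made of the Mcm2 to Mcm7 proteins, and it fires them in S phase. Most of these genes are transcribed at the passage from G1 to S by E2F transcription factors, which the retinoblastoma protein holds in check in resting cells. In the epidermis the genes mark the dividing basal keratinocytes, and they are lost as cells leave the cycle to differentiate. In a whole culture, fewer cells in S phase and less RNA per cell cannot be told apart.

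The letters that E2F proteins are known to bind were found in a larger share of these promoters than in the promoters of other genes. The letters searched were TTTCGCGC and TTTGGCGC, on both strands, in the RefSeq promoter windows of assembly GRCm38.p6, which run from 250 bases before to 50 bases after each listed start. A window was at hand for 36 of the 43 genes. Gmnn, Mcm4, Gins1, Prim2, Pole, Rfc2 and Ccne2 had none. The letters stood in 11 of the 36 (30.6%), against 147 of 7502 tested genes with a window (1.96%) and 0.929% of all 27025 genes with a window. Of 46 other S phase and replication genes with a window, 8 had them (17.4%), as did 1 of 31 G2 and M phase genes (3.23%). A match is a run of letters and no proof of binding. The matched stretches are shown because they carry that count, each with up to 8 flanking bases, 5′ to 3′ on the strand that begins with TTT, and the capitals mark the matched letters.
Orc1: agaaaactTTTCGCGCcactaacc
Cdt1: actaccttTTTGGCGCcatggcgc
Mcm3: tgggaagtTTTGGCGCcaag
Mcm5: ccaagaacTTTCGCGCCAAAacgtccag
Mcm6 (farther from the start): cgtatgctTTTGGCGCGAAAagtgcgtg
Mcm6 (nearer to the start): tggacgggTTTGGCGCgaagtagc
Mcm7: tgacgacgTTTCGCGCcaatttcg
Pola1: ggagtgcaTTTGGCGCcctgtgat
Rfc3: tcgcacgcTTTCGCGCtcgcggga
Lig1: cacacagaTTTCGCGCgcactttg
Uhrf1: gagtcgggTTTCGCGCgcccaggc
Dnmt1 (before the start): cccggcttTTTCGCGCgcgcggaa
Dnmt1 (after the start): gggcagcgTTTGGCGCgggctgtg

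In Mcm5 and in the farther Mcm6 stretch, matches on opposite strands overlap, which gives runs of 12 capitals. The matches of Cdt1, Mcm3, Mcm7 and Lig1 and the nearer one of Dnmt1 lie after the listed start. The 4 genes with a match and the largest difference between the untreated arrays were Uhrf1, Mcm5, Lig1 and Mcm6, and the 2 without a match and with the largest difference were Tk1 and Dut. The 250 bases before the start are shown for those of them whose match lies there and for Tk1 and Dut, with matches in capitals, 5′ to 3′ on the gene's strand. They lie at chr17:56304063-56304312 (plus strand, the window of Uhrf1 that holds its match), chr8:75109259-75109508 (plus strand, Mcm5), chr1:128359706-128359955 (minus strand, Mcm6), chr11:117826015-117826264 (minus strand, Tk1) and chr2:125247265-125247514 (plus strand, Dut).
Uhrf1: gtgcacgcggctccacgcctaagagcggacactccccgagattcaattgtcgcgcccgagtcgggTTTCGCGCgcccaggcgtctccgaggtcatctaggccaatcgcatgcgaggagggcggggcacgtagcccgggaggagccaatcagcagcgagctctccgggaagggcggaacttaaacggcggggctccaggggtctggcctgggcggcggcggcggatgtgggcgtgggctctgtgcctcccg
Mcm5: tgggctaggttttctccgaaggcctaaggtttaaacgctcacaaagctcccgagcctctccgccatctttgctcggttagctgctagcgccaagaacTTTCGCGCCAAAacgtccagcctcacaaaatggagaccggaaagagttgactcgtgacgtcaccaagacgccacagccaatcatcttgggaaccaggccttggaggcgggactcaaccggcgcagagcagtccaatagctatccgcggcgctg
Mcm6: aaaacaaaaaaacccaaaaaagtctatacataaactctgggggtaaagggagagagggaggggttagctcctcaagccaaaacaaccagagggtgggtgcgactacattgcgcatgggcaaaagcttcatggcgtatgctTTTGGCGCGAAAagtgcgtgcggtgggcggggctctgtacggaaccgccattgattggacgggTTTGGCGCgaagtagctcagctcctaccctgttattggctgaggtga
Tk1: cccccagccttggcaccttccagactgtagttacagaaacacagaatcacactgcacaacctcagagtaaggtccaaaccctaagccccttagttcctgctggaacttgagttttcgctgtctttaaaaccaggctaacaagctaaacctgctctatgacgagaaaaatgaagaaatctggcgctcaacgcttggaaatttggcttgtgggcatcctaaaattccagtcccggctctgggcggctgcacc
Dut: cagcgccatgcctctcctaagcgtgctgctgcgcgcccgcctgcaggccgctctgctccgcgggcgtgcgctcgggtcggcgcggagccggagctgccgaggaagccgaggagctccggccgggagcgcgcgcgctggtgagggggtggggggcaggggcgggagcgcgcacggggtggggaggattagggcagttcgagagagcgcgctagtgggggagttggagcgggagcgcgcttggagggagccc

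The absence of capitals from the Tk1 and Dut stretches says only that these letters are not in those windows. CCAAT, in either orientation, is bound by the NF-Y factor and can overlap the end of an E2F match, as in Mcm7. It was in 21 of the 36 promoters (58.3%), against 42.7% of tested genes. Among the other S phase and replication genes 28 of 46 had it (60.9%), and among G2 and M phase genes 26 of 31 (83.9%).

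The arrays had similar scales, with median intensities from 192 to 198. Keratinocyte markers were bright in all of them: the mean log2 level of 13 genes that include keratins 5 and 14 and Trp63 lay between 11.52 and 11.62. The means of 11 keratinocyte differentiation genes lay from 10.83 to 10.97. Of the 11, 7 were higher in untreated replicate 2 than in replicate 1, against 5339 of all 9294 genes. Single genes varied more. Lor was at 11.40 and 11.58 untreated and at 11.01, 11.11, 10.91, 11.85, 11.31 and 11.35 from 20 to 240 min. Krt1 was at 11.13 and 10.78, then at 10.82, 10.89, 11.13, 10.70, 10.88 and 11.43. Markers of fibroblasts (12 of 14 listed genes passed the brightness filter) had means of 8.23, 8.29, 8.18, 8.19, 8.19, 8.37, 8.30 and 8.24 in untreated replicates 1 and 2 and from 20 to 240 min, so untreated replicate 2, 120 and 180 min held the highest. All 12 were higher in untreated replicate 2 than in replicate 1, by a median of 0.04 against 0.02 over all genes. Unlike the mean, Vim was lowest at 120 min (10.38) and highest at 60 min (10.78). Leukocyte and Langerhans cell markers (7 of 12 passed) had means of 7.53 and 7.62 untreated and of 7.47, 7.43, 7.42, 7.58, 7.53 and 7.49 after tamoxifen, highest in untreated replicate 2 and at 120 min and lowest at 40 and 60 min, and 6 of the 7 were higher in untreated replicate 2. Among them H2-Ab1, an MHC class II gene, was at 7.86 and 8.08 untreated and at 7.67, 7.63, 7.56, 8.31, 8.02 and 7.75. At 120 min H2-Ab1 was the only 1 of the 7 above both untreated arrays. Below both at that time were 4 of the 7, against 30.5% of all genes, so the high mean at 120 min does not describe most of these markers. The means of melanocyte markers lay from 10.01 to 10.17, and 1 of 6 endothelial markers passed. The 5 leukocyte and Langerhans cell, 5 endothelial and 2 fibroblast markers that did not pass were among the dimmest 30% of the array. The 3′ minus 5′ difference of the beta-actin control was 0.20 at 60 min and 0.26 to 0.28 elsewhere. The part of other cells or of RNA quality in the results below was not tested.

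The untreated arrays differed from each other across nearly all of these genes. Of the 42, 41 had a lower level in untreated replicate 2 than in replicate 1, or 97.6%, against 42.5% of all 9294 genes. The median difference was -0.33 (log2), against 0.02 over all genes. A difference of at least 0.5 on the log2 scale, with replicate 2 lower, was seen for 7 of the 42 (Tk1, Uhrf1, Mcm5, Lig1, Dut, Mcm6 and Mcm3), against 0.904% of all genes, and one of at least 2-fold for Tk1, against 0.0538%. There is 1 array on each side, so this difference has no test.

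**Figure D1:**
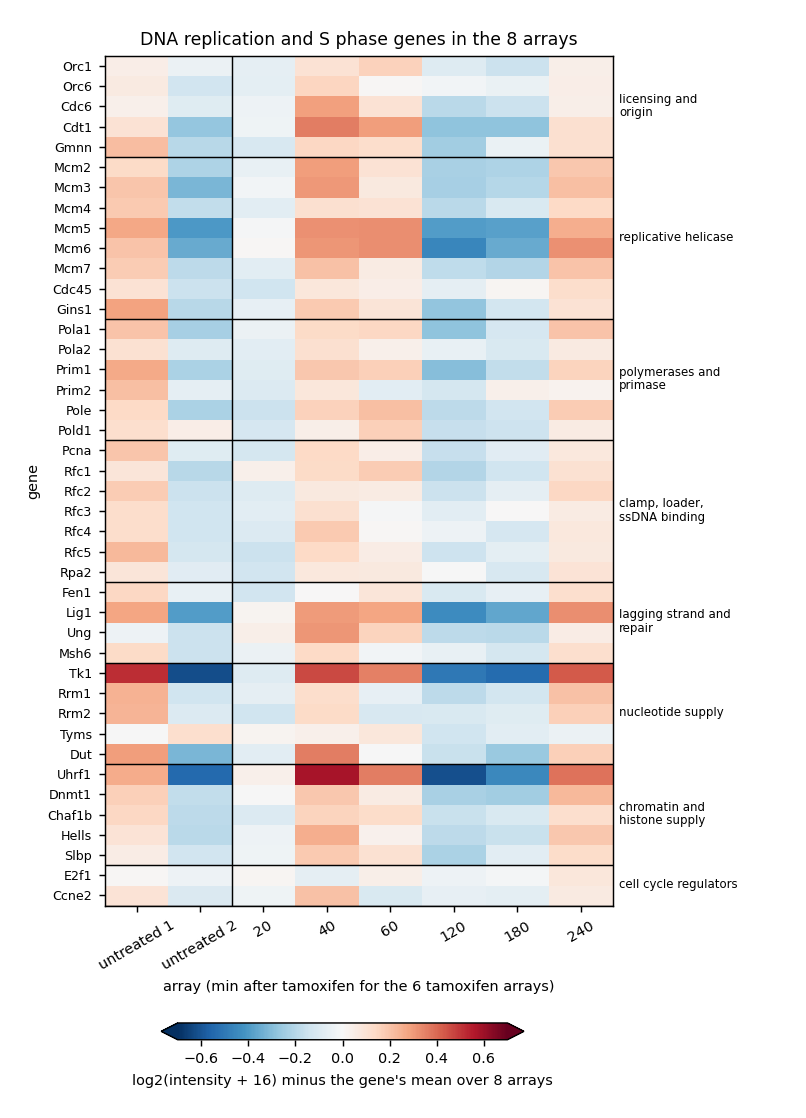
Log2 level of each of the 42 genes (rows, grouped by role) in each of the 8 arrays (columns), as the difference from the gene's own mean over the 8 arrays; red is higher and blue lower. Untreated replicate 2 and the 120 and 180 min arrays are blue in most rows, and untreated replicate 1 and the 40 and 240 min arrays are red.

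The mean of the 42 genes moved between the same levels during the tamoxifen course as between the untreated arrays. It was 9.40 and 9.06 in untreated replicates 1 and 2, and 9.18, 9.43, 9.34, 9.05, 9.09 and 9.38 at 20, 40, 60, 120, 180 and 240 min. The 40 min mean thus lay just above the higher untreated array and the 120 min mean just below the lower one. In 23 of the 42 genes, untreated replicate 2, 120 and 180 min were the 3 lowest of the 8 arrays, against 13% of all genes. That trio was chosen after its values were seen.

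At each time, the number of genes lying outside both untreated arrays can be read against the same count over all genes. At 20 min, 8 of 42 were below both untreated arrays, against 36.6% of all genes. At 40 min, 23 were above both (30% of all genes), and at 60 min 13 were (39.9%). At 120 min, 24 were below both (30.5%), and at 180 min 13 were (26.5%). At 240 min, 18 were above both (34.7%). The counts at 40 and 120 min, 54.8% and 57.1% of the genes, stand above the share over all genes, those at 20 and 60 min, 19% and 31.0%, below it, and those at 180 and 240 min, 31.0% and 42.9%, nearer to it.

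**Figure D2:**
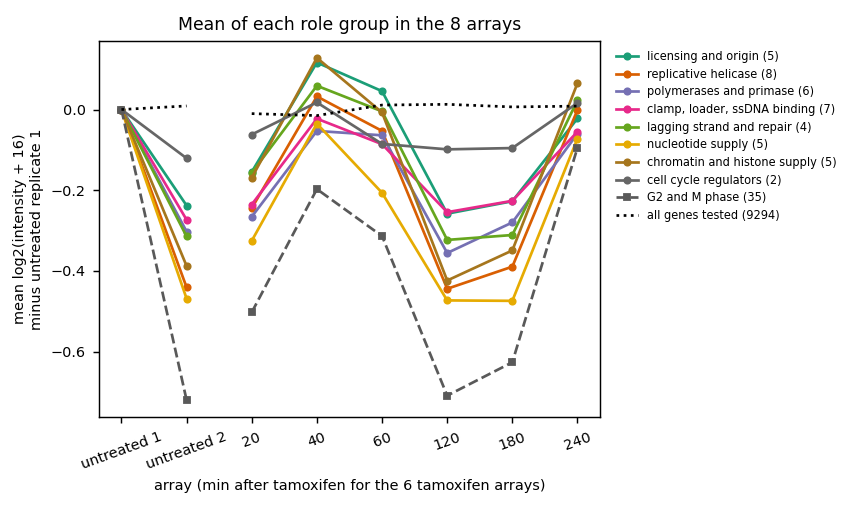
Mean log2 level of each role group (colours, number of genes in brackets), of 35 G2 and M phase genes (dashed) and of all genes tested (dotted) in each array, as the difference from untreated replicate 1. The untreated pair is not joined to the 6 tamoxifen arrays, which are in order of time. All role groups dip in untreated replicate 2 and at 120 and 180 min, and the licensing and chromatin groups lie farthest above 0 at 40 min.

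Among the genes that license origins, Cdt1, the factor that loads the helicase, varied most over the 8 arrays. Its log2 levels were 10.22 and 9.84 in untreated replicates 1 and 2, and 10.09, 10.48, 10.41, 9.83, 9.83 and 10.23 from 20 to 240 min. The 40 and 60 min arrays were higher than either untreated array, and 120 and 180 min lay just below the lower of them. Gmnn, which encodes geminin, the inhibitor of Cdt1 that builds up once S phase has begun, was at 10.00 and 9.59 untreated and at 9.67, 9.93, 9.91, 9.54, 9.74 and 9.90. Unlike Cdt1, Gmnn was highest in untreated replicate 1. Cdc6, an ATPase that works with Cdt1 at origins, was at 8.08 and 7.95 untreated and at 8.0, 8.33, 8.14, 7.85, 7.89 and 8.08. Of the origin recognition subunits, Orc6 was at 9.03 and 8.84 untreated and at 8.91, 9.13, 8.98, 8.96, 8.93 and 9.02, and Orc1 spanned 0.32 over all arrays. Of the 5 genes of this group, 4 were above both untreated arrays at 40 min.

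The 6 helicase subunits shared their low arrays. Mcm5 was at 9.94 and 9.27 in the untreated arrays and at 9.66, 9.99, 9.99, 9.28, 9.29 and 9.92 from 20 to 240 min. Mcm6 was at 10.92 and 10.37, then at 10.73, 11.03, 11.05, 10.26, 10.37 and 11.04. In both genes untreated replicate 2, 120 and 180 min formed a low set, untreated replicate 1, 40, 60 and 240 min a high set, and 20 min lay between them. Mcm3 followed with 9.30 and 8.79 untreated and 9.08, 9.41, 9.17, 8.87, 8.91 and 9.32. Mcm2 was at 9.63 and 9.28, then at 9.44, 9.79, 9.59, 9.27, 9.28 and 9.68. These 2 had their highest value at 40 min.

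Mcm7 was at 11.29 and 10.93 untreated and at 11.04, 11.32, 11.18, 10.94, 10.92 and 11.32 after tamoxifen. Mcm4 was at 10.56 and 10.20, then at 10.29, 10.48, 10.47, 10.18, 10.26 and 10.51. The range over the 8 arrays was 0.79 for Mcm6 and 0.37 for Mcm4, the extremes of the 6 subunits. Cdc45 and the GINS subunit Gins1 join the Mcm ring to form the active helicase. Cdc45 was at 8.14 and 7.89 untreated and at 7.90, 8.12, 8.09, 7.98, 8.06 and 8.17, a range of 0.28, and Gins1 differed by -0.47 between the untreated arrays.

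Genes of the polymerases and the primase, which start and extend the new strands, showed smaller swings. Prim1, the catalytic primase subunit, was at 9.86 and 9.37 untreated and at 9.51, 9.78, 9.76, 9.30, 9.42 and 9.75. Pola1, the catalytic subunit of polymerase alpha, was at 7.97 and 7.54, then at 7.73, 7.91, 7.92, 7.49, 7.65 and 7.97. Both were lowest at 120 min, and untreated replicate 2 and 180 min were the next lowest. Pola2, the regulatory subunit of that polymerase, was at 8.38 and 8.18 untreated and at 8.20, 8.39, 8.31, 8.22, 8.17 and 8.34. Prim2, the large primase subunit, Pole and Pold1, the catalytic subunits of polymerases epsilon and delta, had ranges of 0.33, 0.44 and 0.33.

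The sliding clamp Pcna, which tethers the polymerases to DNA, was at 12.29 and 12.01 in the untreated arrays and at 11.97, 12.24, 12.14, 11.93, 12.02 and 12.17 after tamoxifen. The clamp is loaded by replication factor C. Of its subunits, Rfc5 was at 9.89 and 9.54 untreated and at 9.51, 9.80, 9.72, 9.52, 9.60 and 9.73. Rfc2 was at 9.50 and 9.17, then at 9.23, 9.39, 9.38, 9.17, 9.26 and 9.47. In Pcna, Rfc2, Rfc3 and Rfc5 the highest of the 8 arrays was untreated replicate 1. In Rfc1 it was the 60 min array and in Rfc4 the 40 min array. Rpa2, a subunit of the protein that coats single-stranded DNA, was at 9.06 and 8.90, then at 8.84, 9.05, 9.05, 8.98, 8.87 and 9.08, a range of 0.23.

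Among genes that finish the lagging strand or repair the new DNA, Lig1, the ligase that seals Okazaki fragments, stood out from the other 3. It was at 9.65 and 8.98 untreated and at 9.39, 9.67, 9.65, 8.93, 9.01 and 9.70. Its low and high arrays were those of Mcm5 and Mcm6. Fen1, the nuclease that trims Okazaki fragments, was at 10.30 and 10.10 untreated and at 10.02, 10.16, 10.24, 10.05, 10.10 and 10.27. Msh6, a mismatch sensor, was at 9.61 and 9.32, then at 9.44, 9.61, 9.45, 9.42, 9.35 and 9.59. Ung, which removes uracil from DNA, differed by just -0.11 between the untreated arrays (8.23 and 8.11) and was above both at 20, 40 and 60 min, with 8.30, 8.57 and 8.42. It then stood at 8.08, 8.07 and 8.31.

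In nucleotide supply, Tk1, the thymidine kinase of S phase, had the largest difference between the untreated arrays of the 42 genes. Its levels were 9.70 and 8.56, or intensities of 815.7 and 362.2, a 2.20-fold difference. It was at 9.10, 9.65, 9.54, 8.68, 8.64 and 9.61 from 20 to 240 min. The 120 and 180 min arrays were thus close to untreated replicate 2, and 40 and 240 min to untreated replicate 1. Dut, which removes dUTP, was at 10.01 and 9.40 untreated and at 9.65, 10.08, 9.71, 9.56, 9.46 and 9.89. Rrm1 and Rrm2, the subunits of ribonucleotide reductase, were highest in untreated replicate 1 (10.52 and 11.98) and did not pass that array at any time. Tyms, thymidylate synthase, was the exception to the untreated pattern, with 7.42 and 7.54 and then 7.44, 7.46, 7.50, 7.29, 7.35 and 7.38. Of its 3 probe sets, 2 did not pass the brightness filter.

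Genes that copy the chromatin along with the DNA included the widest range of the 42 over the 8 arrays. Uhrf1, which recognises half-methylated DNA behind the fork, was at 8.95 and 8.15 untreated and at 8.73, 9.27, 9.05, 8.08, 8.24 and 9.08, a range of 1.19. Dnmt1, the methyltransferase that Uhrf1 brings to DNA, was at 9.58 and 9.24, then at 9.41, 9.60, 9.47, 9.19, 9.17 and 9.64. Chaf1b, a subunit of the chromatin assembly factor that deposits new histones, was at 8.75 and 8.42, then at 8.51, 8.76, 8.73, 8.45, 8.50 and 8.72. All 5 measured genes of the group, which also holds the chromatin remodeller Hells and the histone mRNA binding gene Slbp, were above both untreated arrays at 40 min.

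The regulators varied least. E2f1, which encodes an E2F factor, was at 8.84 and 8.80 untreated and at 8.85, 8.77, 8.88, 8.80, 8.82 and 8.91, a range of 0.14. The E2f1 arrays did not fall into the low and high sets seen for Mcm5 or Lig1. Ccne2, a cyclin that drives entry into S phase, was at 8.87 and 8.68, then at 8.75, 8.98, 8.67, 8.72, 8.71 and 8.84, highest at 40 min.

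**Figure D3:**
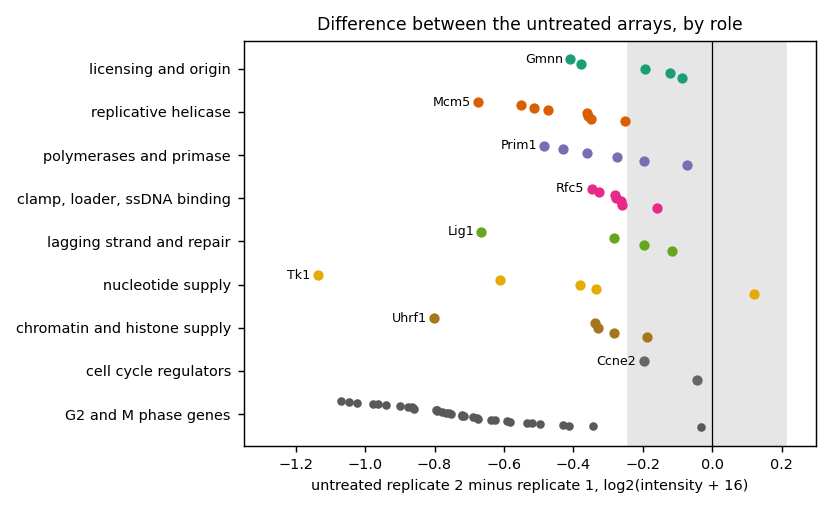
Difference in log2 level between the untreated arrays (replicate 2 minus replicate 1) for each gene, 1 point a gene, by role group, with 35 G2 and M phase genes at the bottom. The grey band holds the middle 90% of all genes tested, from -0.24 to 0.21. Of the 42 genes, Tk1 (-1.14) and Uhrf1 (-0.80) are farthest to the left and Tyms is the only one to the right of 0. Several G2 and M phase genes, such as Plk1 (-1.07) and Mki67 (-1.05), lie farther left than Uhrf1.

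Promoter letters were not used to choose the genes and can be set beside their levels. The 11 genes with the E2F letters had a median difference between the untreated arrays of -0.43 and a median range over the 8 arrays of 0.62. The 24 measured genes whose window lacks them had medians of -0.27 and 0.37. The spreads overlapped, from -0.80 (Uhrf1) to -0.09 (Orc1) with the letters and from -1.14 (Tk1) to 0.12 (Tyms) without, and this difference was not tested.

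Comparisons of pooled times with the untreated arrays ask whether tamoxifen moved these genes. No gene of the 42 passed in any of them by limma with Benjamini-Hochberg adjustment over all 9294 genes, and neither did any other gene (0% called). The arrays of a pooled window are different times and not replicates. For all 6 tamoxifen arrays against untreated, 16 of the 42 were lower (51.3% of all genes), and the median difference was 0.01. An unadjusted p under 0.05 by limma was seen for 0 of the 42. Of all 9294 genes, 186 had one on the lower side and 134 on the higher. For 20 to 60 min, 9 of the 42 were lower (55.5% of all genes), the median was 0.07, and 1 gene, Ung, had an unadjusted p under 0.05 on the higher side (6.67% of all genes). Ung was at 8.43 ± 0.13 (SD over 3 times) against 8.17 ± 0.08 (SD, n = 2), and its adjusted p, the smallest of the 42, was 0.334 by limma. For 120 to 240 min, 38 of the 42 were lower (44.8% of all genes), the median was -0.06, and 1 gene, Tyms, had an unadjusted p under 0.05 on the lower side (1.82% of all genes).

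These comparisons share the same 2 untreated arrays, and the direction of each median rests on them. Without untreated replicate 1, 4 of the 42 were lower at 120 to 240 min and the median was 0.12. Without untreated replicate 2, all 42 were lower, with a median of -0.21. At 20 to 60 min, 2 were lower without replicate 1 and 33 without replicate 2. The untreated mean of Tk1 was 9.13 ± 0.80 (SD, n = 2), against 9.43 ± 0.29 at 20 to 60 min and 8.98 ± 0.55 at 120 to 240 min (SD over 3 times each).

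The comparison of the windows with each other uses no untreated array to form the difference. Its SE and p-values are not free of the untreated arrays, however. They came from a fit that pools the spread within the untreated pair with the spread within each window. At 120 to 240 min, 37 of the 42 genes were lower than at 20 to 60 min, or 88.1%, against 43.8% of all genes, with a median of -0.12 against 0.02 over all genes. None was called by limma after adjustment (0% of all genes), and 4 genes (Ung, Tyms, Cdt1 and Cdc6) had an unadjusted p under 0.05 on the lower side, or 9.52%, against 7.45% of all genes. Cdc45, Prim2, Fen1, Rrm2 and E2f1 were the 5 that were not lower, with differences from 0.0004 to 0.03.

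Ung was lower by 0.28 ± 0.09 (log2, SE), with an adjusted p of 0.187 by limma. Cdt1 was lower by 0.36 ± 0.14 and Cdc6 by 0.22 ± 0.09, with adjusted p of 0.227 and 0.234 by limma. Tyms was lower by 0.13 ± 0.05 (adjusted p = 0.226 by limma), and it was the only gene of the 42 with all 3 late arrays below all 3 early ones, a pattern seen in 8.50% of all genes. The largest differences belonged to Uhrf1 (-0.55 ± 0.28, SE), Tk1 (-0.45 ± 0.32), Mcm5 (-0.38 ± 0.21), Mcm6 (-0.38 ± 0.21), Cdt1 and Lig1 (-0.36 ± 0.22), and of these Cdt1 alone had an unadjusted p under 0.05. In Uhrf1, Tk1, Mcm5, Mcm6 and Lig1 the 240 min array was nearer to the 40 min array than to 120 or 180 min.

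The count of calls between the windows depended on the 240 min array. Without it, 4 of the 42 genes were called lower (Uhrf1 at -0.86, Mcm6 at -0.62, Cdt1 at -0.49 and Ung at -0.36), or 9.52%, against 10.9% of all genes. Without the 40 min array, 30 of the 42 were lower and 0 were called. With limma's array weights, 16 were called, all lower, or 38.1%, against 30.8% of all genes. Those 16 were Ung, Cdt1, Cdc6, Orc1, Uhrf1, Dnmt1, Hells, Lig1, Tk1, Tyms, Rfc1, Mcm2, Mcm3, Mcm5, Mcm6 and Mcm7.

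**Figure D4:**
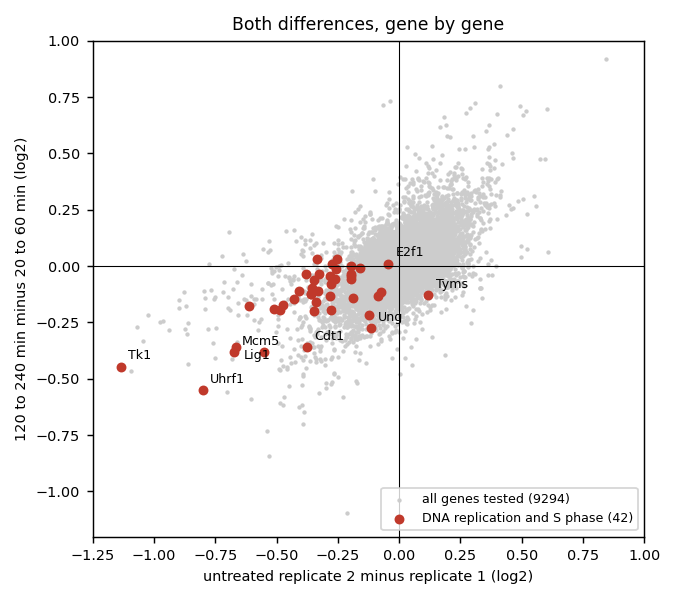
For each gene, the difference between the untreated arrays (horizontal, log2) and the difference of the 120 to 240 min mean from the 20 to 60 min mean (vertical, log2), which share no array. The 42 genes are red and all 9294 genes grey, with 1 gene outside the axes. Of the red points, 36 lie below 0 on both axes.

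The untreated difference and the difference between the windows share no array, and 36 of the 42 genes were lower in both, or 85.71%, against 28.14% of all genes. Of the 35 G2 and M phase genes 29 were, or 82.86%, a share near that of the 42. Across the 42 genes Pearson's r between the untreated and the window difference was 0.67. Across all genes it was 0.59, and across the G2 and M phase genes 0.50. These are correlations across genes of the same arrays, which are not independent replicates. Of the 7 genes with an untreated difference of at least 0.5, Tk1, Uhrf1, Mcm5, Mcm6 and Lig1 were lower in the late window by 0.36 to 0.55, whereas Dut (-0.61 untreated) and Mcm3 (-0.51) differed by -0.18 and -0.19 there. Gmnn, Gins1 and Prim1 differed by -0.41, -0.47 and -0.48 between the untreated arrays and by -0.11, -0.17 and -0.20 between the windows. Ung (-0.11 and -0.28) and Cdc6 (-0.12 and -0.22) had the larger difference between the windows, and that contrast was not tested.

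The genes differed in the array in which they were highest, in some by small margins between single arrays. Mcm7 was at 11.324 at 40 min and 11.316 at 240 min, and Tk1 at 9.70 in untreated replicate 1 and 9.65 at 40 min. Such margins were not tested. The 40 min array was highest for 16 of the 42 genes (38.1%, against 8.25% of all genes), among them Cdc6, Cdt1, Ung, Mcm2, Mcm3, Mcm7, Uhrf1, Hells, Slbp and Ccne2. Untreated replicate 1 was highest for 13 (31.0%, against 6.53%), among them Rrm1, Rrm2, Pcna, Prim1, Prim2, Gins1, Gmnn, Fen1 and Tk1. By role, 40 min was highest for 4 of 5 chromatin genes, 3 of 5 licensing genes and 1 of 5 nucleotide genes, and untreated replicate 1 for 0, 1 and 3 of them. The lowest array was 120 min for 18 genes (42.9%, against 15.9% of all genes) and untreated replicate 2 for 13 (31.0%, against 13.2%).

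**Figure D5:**
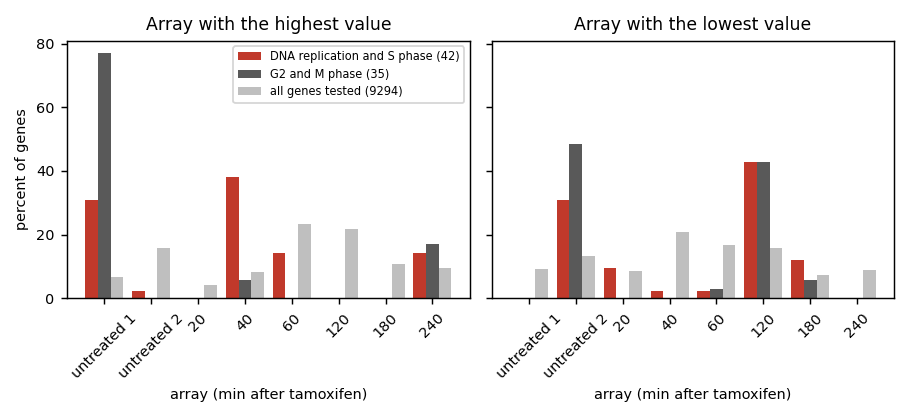
Percent of genes whose highest (left) or lowest (right) value over the 8 arrays falls in each array, for the 42 DNA replication and S phase genes (red), 35 G2 and M phase genes (dark grey) and all genes tested (light grey). For the red bars 40 min (38.1%) and untreated replicate 1 (31.0%) lead on the left, while for G2 and M phase genes untreated replicate 1 leads (77.1%).

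A list of G2 and M phase genes, which act later in the cycle, shared the low arrays and differed in the high ones. Of its 35 tested genes, 35 were lower in untreated replicate 2, with a median of -0.75 against -0.33 for the replication genes. At 40 min 2 of the 35 were above untreated replicate 1, with a median of -0.20 from that array. Of the 42 replication genes 24 were, with a median of 0.015. Over all genes 4077 of 9294 were, with a median of -0.015. Mki67, a marker of proliferating cells, was at 10.56 and 9.51 untreated and at 9.96, 10.38, 10.25, 9.42, 9.62 and 10.55. Plk1, a mitotic kinase, was at 10.03 and 8.97, then at 9.44, 9.76, 9.72, 8.99, 9.12 and 9.99. In both the 40 min array stayed below untreated replicate 1, and the 240 min array was near it. The difference between the lists was not tested.

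Of 58 other S phase and replication genes on a further list, 46 were tested. In untreated replicate 2, 43 of the 46 were lower, with a median of -0.29. Between the windows 40 of the 46 were lower (43.8% of all genes), with a median of -0.12, and 0 were called by limma. By limma 4 had an unadjusted p under 0.05 on the lower side and 2 on the higher, against 692 and 1119 of all 9294 genes. At 40 min 25 were above both untreated arrays, and at 120 and 180 min 4 were, against 0 of the 42 at either of these later times. Of all 9294 genes, 2785 were above both at 40 min, 3528 at 120 min and 3127 at 180 min, so both lists lay below the general share at the later times. The 2 on the higher side were Pold4, a small subunit of polymerase delta, and Rrm2b, a ribonucleotide reductase subunit known from the p53 response, chosen here after their values were seen. Pold4 was higher in the late window by 0.38 (log2) and Rrm2b by 0.19, with adjusted p of 0.192 and 0.245 by limma. Differences between this list and the 42 were not tested. The widest ranges belonged to Ccna2, the cyclin of S phase and G2, at 10.28 and 9.18 untreated and 9.71, 10.24, 10.18, 9.19, 9.31 and 10.23 after tamoxifen, and to Rbl1, a relative of the retinoblastoma protein, at 8.83 and 8.08, then at 8.56, 9.03, 8.93, 8.16, 8.14 and 9.0. Top2a, which untangles DNA, was at 10.73 and 9.83, then at 10.17, 10.57, 10.40, 9.83, 10.01 and 10.74. Usp1, a deubiquitinase that acts on Pcna, was at 10.41 and 9.75, then at 10.05, 10.49, 10.55, 9.75, 9.90 and 10.42.

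Several genes had more than 1 probe set, which gives a check within the same arrays. Of the 67 probe sets that passed the filter, 65 were lower in untreated replicate 2 and 58 had a lower mean in the late window than in the early one. Of 19 genes with more than 1 passing set, the sets had the same sign of untreated difference in 18 (E2f1 had -0.04 and 0.02) and of window difference in 16. The exceptions for the windows were Prim2 (0.01 and -0.02), Rpa2 (-0.0091 and 0.007) and Fen1 (0.0004 and -0.03). The 4 passing sets of Mcm3 gave untreated differences from -0.51 to -0.36, and the 4 of Mcm7 from -0.44 to -0.36. The 7 sets that did not pass, of 6 genes, gave -0.05 to 0.17. The set used and the dim set of the same gene gave -0.61 and 0.10 in Dut, -0.38 and 0.09 in Cdt1, -0.51 and -0.05 in Mcm3, -0.20 and 0.17 in Pola2, and -0.19 and 0.04 in Slbp. In Tyms they gave 0.12 against 0.01 and -0.03.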

How the data were processed

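RNA was measured on 1-colour Affymetrix arrays, according to the labels. The deposited values are linear intensities, 1 column per array, and the authors' summarisation and scaling of probes are not given in the sources used here. Groups were taken from the sample titles, since a shared description speaks of tamoxifen for the untreated arrays too. Intensities were used as log2(intensity + 16), a scale on which differences of dim probe sets shrink. Control probe sets (64) and probe sets with a mean log2 level below 7.04 (the dimmest 30%) were left out. Genes were named from the platform annotation (20380 probe sets with 1 symbol, 691 with several, 1555 unnamed here), and each was represented by its brightest probe set. Tests used R 4.3.3 and limma 3.58.1, with 3 windows (2, 3 and 3 arrays, 5 residual degrees of freedom) or 2 groups, and an adjusted p under 0.05. They were tested on simulated data. Full values are given, in each role group, for the 2 genes with the largest untreated difference and the 1 with the smallest range, all 6 Mcm genes, and the widest-ranging genes of the other lists, with further genes named after their values were seen. The genes and lists were chosen with earlier results of these data known. The number of arrays limits the precision.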

Additional observations from a re-analysis of the deposited data

How the results depend on the processing

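Medians over the 42 genes kept their sign in the other settings tried on all 8 arrays. When each array was left out in turn, the median lay from -0.20 to -0.06 between the windows, from -0.21 to 0.12 for 120 to 240 min against untreated, from -0.0835 to 0.22 for 20 to 60 min and from -0.15 to 0.16 for all tamoxifen arrays. Genes called over all 9294 then numbered 0 to 1014 between the windows, 0 to 2 at 20 to 60 min, 0 to 1 at 120 to 240 min and 0 to 1 for all tamoxifen arrays, and of the 42, 0 to 4 between the windows. Array weights gave 2859 genes between the windows, 16 of the 42, and 1 gene at 120 to 240 min, where a pseudocount of 1 also gave 1. Between the windows, 28 of the 42 genes never changed direction. Those that did had small differences. Under quantile normalization Fen1 was at -0.0117 and Prim2 at -0.0013, and under median centring Fen1 was at -0.0099. As the mean of probe sets Fen1 was at -0.017 and Prim2 at -0.0033, and with array weights Fen1 was at -0.019 and Rrm2 at -0.0682. With arrays left out, Ccne2 ran from -0.1074 to 0.0477, Cdc45 from -0.0373 to 0.0743, E2f1 from -0.0238 to 0.033, Fen1 from -0.0653 to 0.0497, Msh6 from -0.1127 to 0.0104, Orc6 from -0.0854 to 0.025, Prim2 from -0.0209 to 0.0643, Rfc2 from -0.1181 to 0.0287, Rfc3 from -0.055 to 0.0378, Rfc4 from -0.1209 to 0.018, Rfc5 from -0.1441 to 0.0004, Rpa2 from -0.0782 to 0.0438, Rrm1 from -0.1553 to 0.0385 and Rrm2 from -0.0568 to 0.1163. The shorter E2F letters TTCGCGC and TTGGCGC stood in 38.9% of the 36 promoters, against 8.42% of tested genes and 32.6% of other S phase and replication genes. The causes of these shifts were not tested. No paired analysis was possible because each tamoxifen time has 1 array and no number ties an array to another.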
